A study of Homo sapiens with 3 samples.

Results

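The genes described here are those of the claudins CLDN1, CLDN2, CLDN3, CLDN4, CLDN6, CLDN7 and CLDN12, of occludin (OCLN) and of the scaffold protein ZO-1 (TJP1). They were taken by gene symbol, and all 9 were found among the 25270 gene rows that each library lists. HepG2 cells come from a human liver carcinoma and have epithelial character. HepG2/metR cells are described as the HepG2 cells that survived metformin, an inhibitor of respiratory complex I, for more than 5 months, and they served as a model of cells that produce much lactate. In the third group HepG2/metR cells had been treated for 24 h with oxamate, which blocks lactate dehydrogenase, at 40 mM. Total RNA was sequenced from 1 library per condition, so no difference below has a replicate check and no p-value is given. A difference between cultures or library preparations therefore cannot be told apart from a difference between conditions, and the sources used here do not say whether HepG2/metR is a clone or a pool of survivors.

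Tight junctions seal the gap between neighbouring epithelial cells at the border of the apical and lateral membranes. Claudins span the membrane and polymerise into the strands of the junction. Some claudins tighten the barrier and others form pores for ions and water, so the mixture that a cell expresses sets what can pass between cells. Occludin belongs to a different family of membrane proteins in the same strands, and ZO-1 ties strands to the actin cytoskeleton from inside the cell. In liver, tight junctions separate bile in the canaliculi from blood, and loss of junction proteins is a known feature of epithelial cells that take on mesenchymal traits.

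Levels are given as FPKM, fragments per kilobase of transcript scaled to the size of the library, which can be compared between genes. Differences are given on the log2(FPKM + 1) scale of the deposited values, which understates the change of low genes. A gene is called higher or lower when it is at least 2-fold apart between HepG2/metR and parental HepG2 on that scale, or at least 1.5-fold apart (0.58 in log2) with oxamate. The summed FPKM was 562382 in parental HepG2, 534646 in untreated HepG2/metR and 473773 with oxamate. The number of reads is unknown, but from the spacing of the lowest values the HepG2/metR and oxamate-treated libraries were 1.21 and 1.24 times as deep as the parental library. Of all genes, 12210 had a mean of at least 1 FPKM over the libraries, and their median difference was 0.02 in either comparison.

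The labels give liver as the tissue of every library, while hepatocyte marker RNA was high in the parental library only. A list of 10 hepatocyte markers, which includes ALB, APOA1 and the transcription factor HNF4A, summed to 31043 FPKM in the parental library, 13.9 in HepG2/metR and 11.1 with oxamate. All 10 markers were lower in HepG2/metR, where TTR and APOA1 were among those listed at 0. A list of 8 fibroblast markers summed to 6.53, 1637 and 1204 FPKM, of which the intermediate filament gene VIM gave 1.23, 1576 and 1140. THY1 and LUM of that list were also higher in HepG2/metR, at 53.3 and 3.25 FPKM against 0.0374 and 0.172, while COL1A1 and COL3A1 were below 1 FPKM in HepG2/metR. The list of 5 bile duct markers summed to 1373, 166 and 147 FPKM, with KRT7 higher and KRT19, SOX9, EPCAM and SPP1 lower in HepG2/metR. The 5 endothelial markers, CLDN5 among them, summed to at most 0.328 FPKM, and of the leukocyte markers only CD68 reached 1 FPKM. That the HepG2/metR culture descends from HepG2 rests on the labels and cannot be checked from gene levels, so a contrast between the conditions cannot be told apart from one between unrelated cultures. These differences accompany every contrast with parental HepG2 below, and their part in the values of the junction genes was not tested.

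Short stretches around the start sites are shown first, because several repressors of junction genes described further below (SNAI1, SNAI2, ZEB1 and ZEB2) are known to bind an E-box with the letters CAGGTG, which read CACCTG on the other strand. The windows run from 250 bases before to 50 bases after each annotated start, and they come from RefSeq on build GRCh38.p14, whereas the expression values were made on hg19. Of the 15 windows of the 9 genes, 6 (40%) held at least 1 such E-box on either strand, against 20.6% of all 35116 windows. These shares are not of like windows, since the 6 windows had 66% to 72% G and C, against a median of 58.7% over all windows. The windows of the OCLN starts also overlap each other. The first TJP1 start had 1 E-box, at -88, which is not printed below. The windows of CLDN1, CLDN2, CLDN4 and CLDN12 held none. The second of the CLDN7 starts had 5, a number reached in 0.0940% of all windows, and 4 of them lay before the start. The E-boxes are in capitals, each line runs 5′ to 3′ on the strand of the gene, and the position of the first capital letter is counted from the start site.
CLDN7, second start, from -174 (chr17:7262635-7262664, minus strand): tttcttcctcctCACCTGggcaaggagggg
CLDN7, second start, from -135 (chr17:7262596-7262625, minus strand): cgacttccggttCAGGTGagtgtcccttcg
CLDN7, second start, from -20 (chr17:7262475-7262504, minus strand): tatactCAGGTGcgcccCACCTGtccgccc
OCLN, first start, from -33 (chr5:69492502-69492531, plus strand): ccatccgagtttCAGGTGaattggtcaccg
OCLN, second start, from -133 (chr5:69492645-69492674, plus strand): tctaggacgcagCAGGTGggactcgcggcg
CLDN6, from 33 after the start (chr16:3018134-3018163, minus strand): ttatctccttcgCAGGTGagtccggggcta
CLDN3, from 37 after the start (chr7:73770221-73770246, minus strand): caaagccacaggCAGGTGcaggcgca
These matches describe letters only. Whether any factor binds at them, and their part in the levels that follow, was not tested.

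HepG2/metR cells had a different claudin repertoire from parental HepG2. CLDN4 and CLDN6 went from clear expression to near 0, CLDN1 was lower but stayed among the highest, and CLDN7 went from near 0 to clear expression. CLDN12 and OCLN were within 2-fold, and TJP1 was higher. Of the 9 genes, 7 had a mean of at least 1 FPKM, and of these CLDN1, CLDN4 and CLDN6 were lower and CLDN7 and TJP1 higher, where 17.6% of all genes tested were lower and 16.6% higher. CLDN4, CLDN6 and CLDN7 reached that mean only through the libraries in which they were high, so a difference in these genes followed from the filter. CLDN2 and CLDN3 did not reach the mean. In bulk RNA, fewer cells that express a gene and less of its RNA per cell cannot be told apart.

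**Figure D1:**
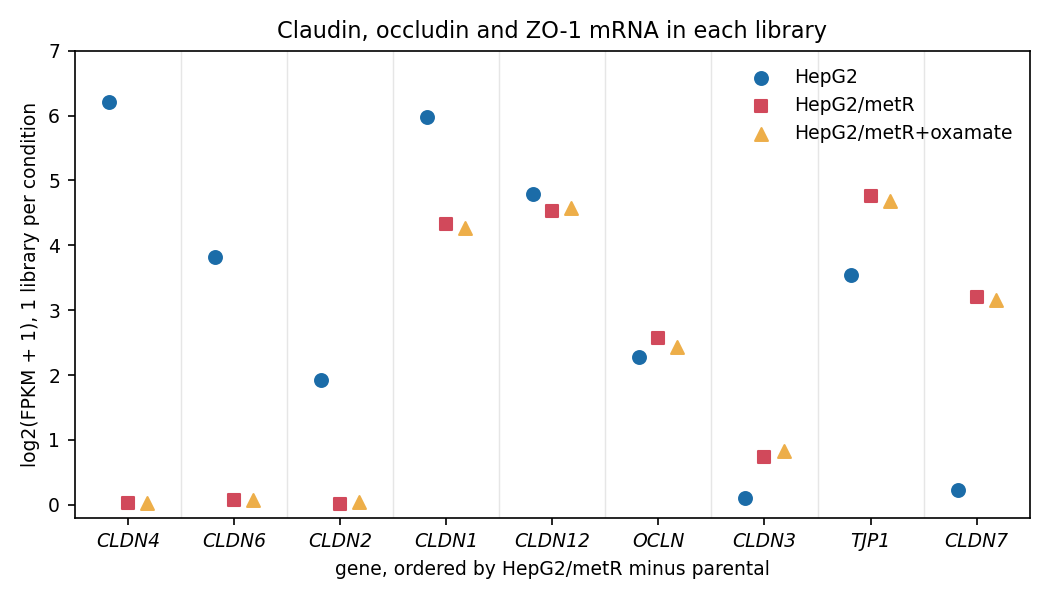
Level of each of the 9 genes in each library on the log2(FPKM + 1) scale (vertical axis), 1 library per condition and no error bars, with genes ordered along the horizontal axis by HepG2/metR minus parental. CLDN4, CLDN6 and CLDN2 sit near 0 in both HepG2/metR libraries, CLDN7 sits near 0 in the parental library only, and the HepG2/metR symbols with and without oxamate lie close together for every gene.

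CLDN4, a barrier claudin and a receptor of Clostridium perfringens enterotoxin, had 72.9 FPKM in the parental library, 0.0209 in HepG2/metR and 0.0205 with oxamate. It was the highest of the 9 genes in the parental library and the lowest with oxamate. The difference of -6.18 in log2 was the 94th largest fall among the 12210 genes tested. CLDN6, an embryonic claudin that some tumours express again, was listed at 13.2 FPKM in parental cells, 0.0587 in HepG2/metR and 0.0576 with oxamate, a difference of -3.75 in the first comparison. CLDN2, which forms a pore for cations and water, was at 2.79, 0.0124 and 0.0365 FPKM, and its difference of -1.90 is past 2-fold, although its mean lies under the minimum. No fold is given for these genes, because values this low may rest on a single fragment.

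CLDN1, a barrier claudin that hepatitis C virus also uses for entry, had 62.2 FPKM in the parental library, 19.2 in HepG2/metR and 18.3 with oxamate. This was 3.25-fold lower in HepG2/metR, and -1.65 on the log2(FPKM + 1) scale. Unlike CLDN4, CLDN1 remained the highest but one among the claudins of the HepG2/metR library.

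CLDN7, a claudin known to bind the adhesion protein EPCAM, showed the opposite pattern. It was listed at 0.171 FPKM in parental cells, 8.26 in HepG2/metR and 7.91 with oxamate, a difference of 2.98 in log2 between HepG2/metR and parental cells. CLDN3, a barrier claudin close to CLDN4 in sequence, was listed at 0.0775, 0.673 and 0.787 FPKM. It stayed under 1 FPKM in every library, and its difference of 0.63 is short of 2-fold on this scale. The difference of CLDN3 was 2.12 with a pseudocount of 0.1 and 3.12 with none, so whether it passes 2-fold depends on how low values are treated.

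CLDN12, an atypical claudin that lacks the tail motif by which most claudins bind ZO-1, was the steadiest of the claudins at clear levels. It was listed at 26.6 FPKM in parental cells, 22.1 in HepG2/metR and 22.7 with oxamate, a difference of -0.26. OCLN was listed at 3.86, 4.95 and 4.40 FPKM, a difference of 0.29. TJP1 was listed at 10.7 FPKM in parental cells, 26.2 in HepG2/metR and 24.8 with oxamate, which was 2.45-fold higher in HepG2/metR and 1.22 in log2. The strand proteins and their scaffold therefore did not move the same way, since TJP1 was higher where CLDN1, CLDN4 and CLDN6 were lower.

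The order of the levels changed accordingly. In the parental library it ran, from high to low, CLDN4, CLDN1, CLDN12, CLDN6, TJP1, OCLN, CLDN2, CLDN7 and CLDN3. In the HepG2/metR library it ran TJP1, CLDN12, CLDN1, CLDN7, OCLN, CLDN3, CLDN6, CLDN4 and CLDN2. The oxamate-treated library had the order of the HepG2/metR library except that CLDN2 stood above CLDN4, both at near 0. With 1 library per condition the spread of a level is unknown, so neighbours in these orders, such as CLDN4 and CLDN1 in parental cells, cannot be called different.

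The claudin genes with a row were then counted and summed, to compare the makeup of the family between libraries. The files list 23 claudin genes by symbol, of which 8 reached 1 FPKM in the parental library and 5 in each of the HepG2/metR libraries, while 7 were listed at 0 in every library. Their summed level was 188 FPKM in parental cells, 60.2 in HepG2/metR and 59.0 with oxamate. CLDN4 made up 38.8% of the parental sum and 0.0347% of the HepG2/metR sum. CLDN1 kept a similar share, at 33.1%, 31.8% and 30.9% in the 3 libraries. CLDN12 made up 14.1% of the parental sum, 36.6% of the HepG2/metR sum and 38.6% with oxamate, and CLDN7 went from 0.0908% to 13.7% and 13.4%.

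**Figure D2:**
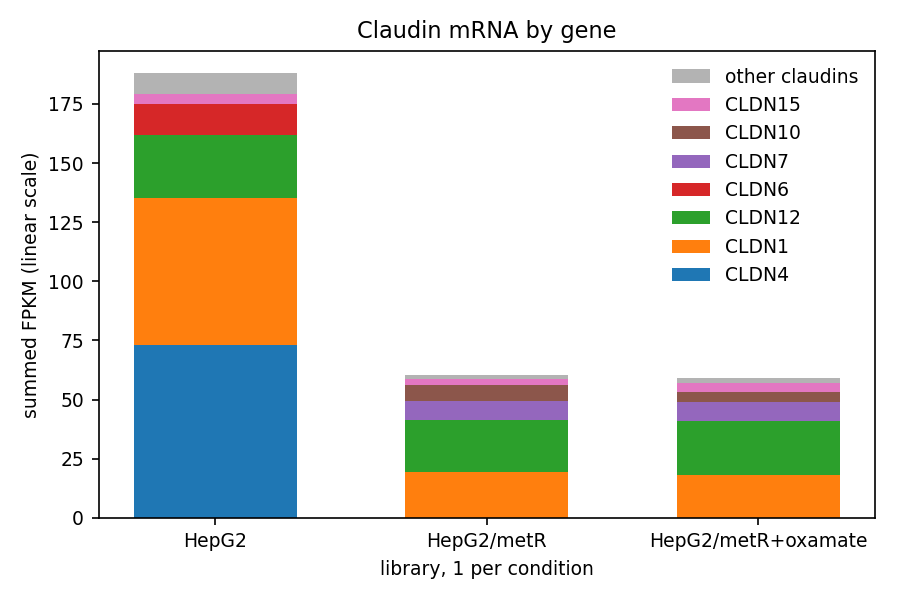
Summed FPKM of the claudin genes in each library (stacked bars on a linear axis from 0, 1 library per condition), with colours for the 7 highest claudins by mean FPKM and grey for all others. The parental bar reaches 188 FPKM, with CLDN4 and CLDN1 as its largest blocks, and the HepG2/metR bars reach 60.2 and 59.0 FPKM without a visible CLDN4 or CLDN6 block and with CLDN7 and CLDN10 added.

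Among the 16 other claudins with a row, CLDN10, which forms ion-selective pores, was the one with a pattern like that of CLDN7. It was listed at 0.0179 FPKM in parental cells, 6.75 in HepG2/metR and 4.15 with oxamate, a difference of 2.93 in the first comparison. CLDN15, a cation pore of the gut, was listed at 4.25, 2.57 and 3.94 FPKM, within 2-fold. CLDN11, known from myelin and from the testis barrier, was at 2.86 FPKM in parental cells and at 0.0456 and 0.0149 in the HepG2/metR libraries. CLDN19, a kidney claudin, was at 1.80 FPKM in parental cells, listed at 0 in HepG2/metR and at 0.0125 with oxamate. CLDN10 and CLDN15 were the only claudins outside the 9 genes with a mean of at least 1 FPKM.

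Claudin genes that lie side by side did not share a direction in every case. Gene order was read from the RefSeq table, leaving out genes with no row in the files. CLDN3 and CLDN4 are neighbours on chromosome 7, and in HepG2/metR CLDN4 fell to near 0 while CLDN3 was listed higher than in parental cells. CLDN6 and CLDN9 are neighbours on chromosome 16, and CLDN9 was listed at 0.712 FPKM in parental cells and at 0 in both HepG2/metR libraries. On its other side CLDN6 adjoins TNFRSF12A, listed at 71.6, 124 and 127 FPKM, so the low CLDN6 values did not extend to that neighbour. OCLN lies next to MARVELD2, the gene of the related protein tricellulin, which was listed at 8.62, 0.295 and 0.543 FPKM while OCLN held its level.

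Some of these values could take up fragments of other genes. In GENCODE release 29, 8.25% of the distinct 50-base words in CLDN7 transcripts also occur in transcripts of AC003688.1, an overlapping gene model on the same strand. For CLDN6 the share was 8.01%, with CLDN9 among the sources, for CLDN12 12.6%, with the overlapping GTPBP10 among them, and for OCLN 8.60%, with the pseudogene OCLNP1 among them. CLDN1, CLDN2 and TJP1 shared none, and CLDN3 and CLDN4 shared 1.80% and 0.612%. CLDN7 overlaps ELP5 on the opposite strand, and the sources used here do not say whether strand was counted. ELP5 was listed at 35.5 FPKM in the parental library, where CLDN7 was at 0.171, and at 61.5 in HepG2/metR, where CLDN7 was at 8.26. CLDN6 overlaps TNFRSF12A and CLDN2 overlaps MORC4 in the same manner, and both partners stayed above 12 FPKM in the libraries in which the claudins were near 0.

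The other proteins of the junction were examined by list. Of 11 other tight junction membrane proteins, 7 had a mean of at least 1 FPKM, and all 7 were lower in HepG2/metR. Of all genes tested, 17.6% were lower. The median difference of the 7 was -2.18, where the median of all genes was 0.02. MARVELD2, MARVELD3, JAM3, ESAM and LSR reached that mean only through the parental library, so that their direction followed from the filter, and the median over all 11 was -1.67. In the lists that follow, too, the direction of every gene near 0 in either parental or HepG2/metR cells followed from the filter. LSR, which recruits tricellulin to corners where cells meet, was listed at 53.6 FPKM in parental cells, 0.272 in HepG2/metR and 0.198 with oxamate. The tricellulin gene MARVELD2 and its relative MARVELD3 differed by -2.89 and -2.18. The adhesion molecules F11R, also called JAM-A, and CXADR, the coxsackievirus and adenovirus receptor, were lower but still expressed, at 37.9 and 33.9 FPKM in parental cells against 11.3 and 10.9 in HepG2/metR. JAM3 and ESAM, adhesion molecules also known from endothelium, differed by -2.18 and -2.87. OCLN was thus the 1 gene of its family, with MARVELD2 and MARVELD3, that was not lower.

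The cytoplasmic plaque was mixed. Of 12 plaque genes with a mean of at least 1 FPKM, 4 were higher and 3 lower. Their median difference was 0.36, and of all genes tested 16.6% were higher and 17.6% lower. TJP3, the gene of ZO-3, was at 2.38 FPKM in parental cells and 0.0232 in HepG2/metR. The scaffolds CGNL1 and MAGI1 were lower, by -2.60 and -1.47. The angiomotins AMOT, AMOTL1 and AMOTL2, which also bind the coactivator YAP, were higher by 1.92, 2.60 and 3.64. YBX3, a DNA-binding protein that ZO-1 holds at the junction, was the highest of the list by its mean, at 39.1, 103 and 85.4 FPKM, and was higher in HepG2/metR by 1.37.

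The apical polarity genes had no common direction either, with 3 of 11 higher and 3 lower. Over all genes tested, 16.6% were higher and 17.6% lower. CRB3, the epithelial Crumbs protein that marks the apical membrane, was listed at 13.9 FPKM in parental cells and at 0 in both HepG2/metR libraries. PRKCZ and PARD6B were lower by -1.36 and -1.04, although PARD6B was at -0.97 when libraries were brought to an equal FPKM total and at -0.91 under upper-quartile scaling. MPP5 (also called PALS1), PARD6A and PARD3B were higher by 1.06, 1.06 and 1.22. PARD3, the highest of the list by its mean, was listed at 19.9, 27.6 and 29.1 FPKM.

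Proteins that bind claudins directly differed strongly. EPCAM, which binds CLDN7 in epithelial membranes, was listed at 102 FPKM in parental cells, 0.0900 in HepG2/metR and 0.0661 with oxamate. It was high in the library in which CLDN7 was near 0, and near 0 in the libraries in which CLDN7 was expressed. The tetraspanins CD9 and CD81, of which CD81 pairs with CLDN1, were higher in HepG2/metR, at 10.8 against 141 FPKM for CD9 and 0.383 against 141 for CD81.

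Transcription factors known to act on junction genes were examined next. Of 13 factors known to activate epithelial or hepatic junction genes, 5 had a mean of at least 1 FPKM. In HepG2/metR 4 of these were lower, where 17.6% of all genes tested were lower. HNF4A, which drives hepatocyte polarity and junction genes, was listed at 68.7 FPKM in parental cells, 0.0156 in HepG2/metR and 0.0153 with oxamate. GRHL1 and ELF3 were lower by -2.16 and -1.38. KLF5, at 2.43, 5.74 and 10.2 FPKM, was short of 2-fold at 0.98, and past it under 4 of the alternatives. GRHL2, the grainyhead factor best known for activating claudin genes, was at most 0.0134 FPKM in any library. The epithelial splicing regulator ESRP2 was lower by -3.75, and ESRP1 was at most 0.188 FPKM.

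Of 5 repressors of junction genes, SNAI2, TWIST1 and ZEB2 were higher in HepG2/metR, where 16.6% of all genes tested were higher. All 3 reached the mean of 1 FPKM only through the HepG2/metR libraries, so their direction followed from the filter. SNAI2 was listed at 0.0431 FPKM in parental cells, 6.48 in HepG2/metR and 12.6 with oxamate, ZEB2 at 0.0327, 5.27 and 7.72, and TWIST1 at 0 and then 3.29 and 3.91. ZEB1, the highest of the list by its mean, was within 2-fold at 5.30, 9.30 and 10.1 FPKM. SNAI1, whose mean was under 1 FPKM, had the opposite pattern, at 1.89 FPKM in parental cells and 0.0680 in HepG2/metR, a difference of -1.44. CLDN7, whose second start has the most E-boxes among the 9 genes, was at 0.171 FPKM in parental cells, 8.26 in HepG2/metR and 7.91 with oxamate. Whether any of these repressors acts at the E-boxes was not tested.

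Other cell-cell junctions gave a background for these changes. Of 10 adherens junction genes, 5 were lower and 1, CTNNA1, higher. The epithelial cadherin gene CDH1 was listed at 5.92, 0.0365 and 0.0214 FPKM, and the neural cadherin gene CDH2 at 35.2, 33.4 and 36.1, so the level of CDH2 was already above that of CDH1 in parental cells. JUP, MLLT4 (afadin) and PVRL1 (nectin-1) differed by -2.14, -2.09 and -1.71, and CTNND1 by -1.09, which became -0.92 under upper-quartile scaling. Of 6 desmosome genes with a mean of at least 1 FPKM, DSP, DSC2 and PKP3 were lower, by -3.03, -1.92 and -1.42, and DSC3 was higher by 3.01. DSG2, the highest of that list by its mean, was listed at 36.5, 24.0 and 25.5 FPKM. Among gap junction genes GJB1, the main connexin of hepatocytes, was listed at 69.4 FPKM in parental cells and at 0 in both HepG2/metR libraries, whereas GJC1 was listed at 1.44, 47.3 and 53.3 FPKM. Over all these lists without the 9 genes, 67 of 103 genes had a mean of at least 1 FPKM. Of these 30 were lower and 17 higher, with a median of -0.59, where 17.6% of all genes tested were lower and 16.6% higher.

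Oxamate was compared with no treatment in HepG2/metR cells, to ask whether lowering lactate moved these genes. None of the 9 genes differed by 1.5-fold, and the differences lay between -0.14 for OCLN and 0.10 for CLDN3. Of all genes tested, 4.30% were at least 1.5-fold higher and 3.82% at least 1.5-fold lower. CLDN1 differed by -0.07, CLDN7 by -0.06, TJP1 by -0.07 and CLDN12 by 0.04, and CLDN4 and CLDN6 were near 0 in both libraries. The signs are not firm, because all 9 differences were positive, from 0.003 to 0.21, when the libraries were brought to an equal FPKM total, where the median of all genes was 0.17 and the genes at least 1.5-fold apart were 1184 higher and 192 lower in place of 525 and 466. This comparison shares the HepG2/metR library with the first.

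**Figure D3:**
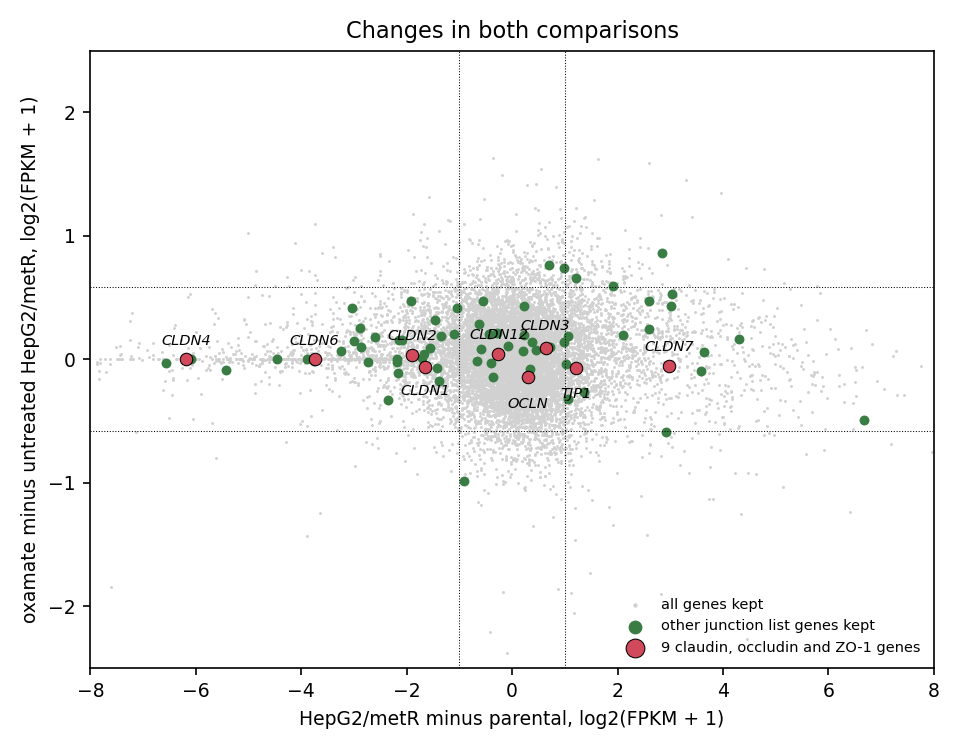
Oxamate minus untreated HepG2/metR (vertical axis) against HepG2/metR minus parental (horizontal axis), both on the log2(FPKM + 1) scale, for the 9 genes (red), the other junction genes with a mean of at least 1 FPKM (green) and all 12210 such genes (grey), of which 74 lie outside the plotted range. Dotted lines mark 2-fold and 1.5-fold, the HepG2/metR library enters both axes, and the 9 genes spread from -6.18 to 2.98 along the horizontal axis and from -0.14 to 0.10 along the vertical axis.

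A few other junction genes passed 1.5-fold with oxamate. Of the 67 genes, 5 were higher and 2 lower, where 4.30% of all genes tested were higher and 3.82% lower. MPDZ, a plaque protein with many PDZ domains, went from 8.72 to 15.5 FPKM, AMOT from 3.60 to 5.94, PARD3B from 1.83 to 3.46, KLF5 from 5.74 to 10.2 and SNAI2 from 6.48 to 12.6. CLDN10 was among the lower genes, with a difference of -0.59. CLDN10 passed the threshold by little and was at -0.57 under upper-quartile scaling and -0.45 at an equal FPKM total. AMOT was at 0.57 under median-of-ratios size factors, also short of 1.5-fold.

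The genes whose levels were most like those of the members were found by the smallest distance over the 3 log2(FPKM + 1) values, among 12095 genes. For CLDN4 they were BEX1, GJB1 and HNF4A, at distances of 0.055, 0.082 and 0.085. For CLDN6 they were GPD1, FRAS1 and CRYAA, and for CLDN2 SHC2, ACP5 and CREB3L3. CLDN7 was nearest to ULBP2, HOXA10 and ME3, and CLDN1 to PREB, LGALS3 and C14orf119. CLDN12 was nearest to YY1, AAR2 and DLAT, OCLN to IMMP2L, LIPT1 and TRMT5, and TJP1 to TUBB2B, RFX5 and ANKLE2. The distances ranged from 0.033 for IMMP2L to 0.23 for C14orf119, and with 3 points each they are a description of level only.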

How the data were processed

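Total RNA of HepG2 cells, of HepG2/metR cells and of HepG2/metR cells treated with oxamate had been sequenced on an Illumina instrument, with 1 library per condition. The authors deposited 1 value per gene symbol and library on a log2 scale, whose form, log2(FPKM + 1), was inferred from the values. The submitters' processing notes name STAR 2.5.1b, FastQC 0.11.5, Cufflinks 2.2.1 and build hg19. The annotation and filters are not given in the sources used here.

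Values were used without further scaling. FPKM was recovered as 2 to the power of the value, minus 1, and a gene was kept when its mean FPKM reached 1. Symbols were matched exactly, with older symbols tried where a gene had been renamed; 28 symbols turned into dates were not used by name. Read numbers are unknown, and intervals are therefore not given. No test across genes was possible, and thresholds of 2-fold and 1.5-fold follow the study's methods. Named genes are all 9 members, list genes past a threshold or highest in their list, claudins reaching 1 FPKM, gene neighbours, the 3 nearest patterns, and single markers or list genes under a threshold that were named after their values were seen. The members and lists were chosen with earlier results of these data known. Proteins were not analysed here, and some list genes are counted but not reported by name. The 2-fold call was tested on simulated data without low parental levels, so low genes and the 1.5-fold call were not covered. Python 3.11, numpy 2.4.6, pandas 2.3.3 and matplotlib 3.10.9 were used.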

Additional observations from a re-analysis of the deposited data

How the results depend on the processing

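The results were recomputed with a pseudocount of 0.1 or none, with scaling by median-of-ratios size factors, by the upper quartile or to an equal FPKM total, no filter or a mean of at least 5 FPKM, and 2-fold with oxamate. The differences of the 9 genes between HepG2/metR and parental cells kept their direction and side of the threshold under every pseudocount and scaling tried except that of CLDN3, which passed 2-fold at 2.12 with a pseudocount of 0.1 and at 3.12 with none. Of the 3 called lower, CLDN6, with a mean of 4.44 FPKM, left the call with a mean of at least 5 FPKM, and CLDN2 joined them with no filter. With oxamate the one gene to pass 1.5-fold was CLDN2, at 1.55 with no pseudocount, between 0.0124 and 0.0365 FPKM. Upper-quartile scaling moved the median of all genes to 0.17 in the first comparison. With a mean of at least 5 FPKM, fewer genes are tested: 1249 of all genes and 10 of the junction list genes rose at least 2-fold in HepG2/metR and 1428 and 17 fell, and with oxamate 271 of all genes and 3 list genes were at least 1.5-fold higher and 1 list gene lower. With oxamate, genes at least 1.5-fold higher numbered 1018 over all genes and 9 in the lists with a pseudocount of 0.1, 1111 and 10 with none, and 1184 and 11 at an equal FPKM total, under which 192 of all genes and 1 list gene were lower. Upper-quartile scaling left 1 list gene lower. At 2-fold, 66 of all genes were higher and 64 lower with oxamate, and 0 list genes in either direction. The cause of these shifts was not tested. No paired analysis was possible because each condition has 1 library, and for the same reason no replicate could be left out. Without read counts, levels under about 1 FPKM have no known precision.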

Other observations

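CLDN1 and OCLN are also entry factors of hepatitis C virus, together with CD81 and the scavenger receptor SCARB1. All 7 genes of the list of entry factors had a mean of at least 1 FPKM. In HepG2/metR against parental cells 2 were higher, 3 lower and 2 within 2-fold. Over all genes tested, 16.6% were higher and 17.6% lower. CD81, which HepG2 cells are known to lack, was listed at 0.383 FPKM in parental cells, 141 in HepG2/metR and 99.9 with oxamate. SCARB1 was listed at 89.5, 16.7 and 13.1 FPKM, and NPC1L1, a cholesterol transporter, at 8.75, 0.0212 and 0.0691. EGFR, a cofactor of entry, was higher in HepG2/metR, at 2.66, 29.1 and 42.5 FPKM. With CLDN1 at 19.2 and OCLN at 4.95 FPKM, the HepG2/metR library listed all 4 of CD81, SCARB1, CLDN1 and OCLN above 1 FPKM, whereas the parental library listed 3 of them.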
